A study of Mus musculus with 12 samples.

Results

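Step 4 control cells are the neural precursors that mouse embryonic stem cells (mESC) form by the fourth step of a culture protocol, taken without any sorting. They are compared here with the mESC from which such cultures start. They were chosen by their label: 3 of the 12 arrays of the series carry RNA of step 4 control cells in the Cy5 channel and RNA of mESC in the Cy3 channel, and every probe gives a log2 ratio of step 4 control cells over mESC.

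All cells were C57BL/6 mESC labelled Actin-eGFP. In the step 4 control group, mESC had been freed of feeder cells with magnetic beads, grown as embryoid bodies for 4 days without LIF, attached for 24 h, and selected for 6 days in a serum-free medium named ITSFn. They were then replated on polyornithine and laminin and kept for 5 days with N2 supplement and basic FGF (bFGF) at 10 ng/ml. Step 4 enriched cells had the same culture and were then collected on a magnetic column through PSA-NCAM, a neural adhesion molecule that carries polysialic acid, after removal of dead cells; whether dead cells were also removed from the unsorted cultures is not given in the labels. Step 5 control cells were unsorted cultures kept for 7 more days without bFGF, with B27 supplement and 200 µM ascorbic acid. The mESC in Cy3, a common reference on every array, were grown on mitomycin-C-treated mouse fibroblasts with LIF and serum, and the labels do not say whether these fibroblasts were removed before the reference RNA was taken. Each group has 3 biological replicates, numbered 1 to 3, and step 5 enriched cells enter here only through the shared estimate of the spread.

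mESC hold their undifferentiated state through a network of transcription factors around Pou5f1 (Oct4), Sox2 and Nanog, kept up by LIF. When LIF and serum are withdrawn, part of the cells take a neural fate and become neuroepithelial and then radial glia-like precursors, which carry Sox1, Nes and Fabp7, divide in response to bFGF and give rise to neurons and glia. Embryoid bodies also form mesoderm and endoderm, so that a culture that is not sorted can hold several lineages side by side. In such bulk RNA, fewer cells of a type and less RNA per cell cannot be told apart.

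Of 39429 probes, 25622 were well above background in at least 1 channel on all 3 step 4 control arrays. They stand for 20394 genes, each represented by its brightest probe. A symbol was found for 15700 of these genes, and every probe without a symbol was counted as a gene of its own. Both channels were above background on all 3 arrays for 18000 of the 20394 genes (88.3%), and no gene was saturated. Taken across probes, the mESC channel was nearly the same on all 12 arrays, with correlations of 0.994 to 0.999 over 66 pairs. Single genes could vary more in that channel. Over the 3 step 4 control arrays the mESC signal of a gene spanned a median of 0.19 log2 units. Among the largest rises it spanned 1.92 for Fabp7, 1.24 for Ctsj and 0.61 for Col1a2, but 0.15 for Gpm6b. The log2 ratios of the 3 step 4 control arrays correlated at 0.742 to 0.857, below the 0.904 to 0.965 between step 4 enriched arrays. Array 2, which was also read with an older version of the scanner software, was the one that stood apart for 44.2% of the 321 genes whose ratio spanned more than 4-fold over the 3 arrays, and for 8321 of 20342 genes whatever their range. Dyes were not swapped, so a preference of a probe for one dye and a difference between cells cannot be told apart, and the single mESC RNA leaves out the spread between mESC cultures.

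Compared with mESC, unsorted step 4 cells were higher in genes of radial glia-like precursors, of the forebrain and of axon growth, and also in genes of connective tissue, of the placenta and of the germ line, and in imprinted genes. They were lower in the Nodal inhibitors Lefty1 and Lefty2 and in genes of naive pluripotency. Genes of neurons and of endoderm were high on some of the 3 arrays and closer to the level of mESC on others, and those of the placenta were weakest on array 1. Step 4 control cells differed from mESC at 8757 of 20394 genes, which is 42.9% of those tested (limma, adjusted p under 0.05). Of these, 4798 were higher (23.5%) and 3959 lower (19.4%). Among the 15700 genes with a symbol, from which all gene groups come, 25.4% were higher and 19.5% lower. These shares are the background for every count given below. The larger changes were mostly upward: 1547 genes were called and at least 2-fold higher against 664 lower, and 112 were at least 8-fold higher against 11 lower. The median over all genes was 0.026, so a gene group is read against a value near 0. The balance of directions depends on the scaling of the channels: 54.8% of the calls were higher as given, 86.5% (9696 higher, 1509 lower) with plain median centring, 98.8% (17522 higher, 221 lower) with no normalization, and 45% (4294 higher, 5239 lower) with the scanner software's own log ratio. Median centring moved the median of the probes tested by 0.324 and no normalization by 0.948 on the log2 scale, and values of named genes and gene groups under these 2 settings are given relative to that shift.

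**Figure D1:**
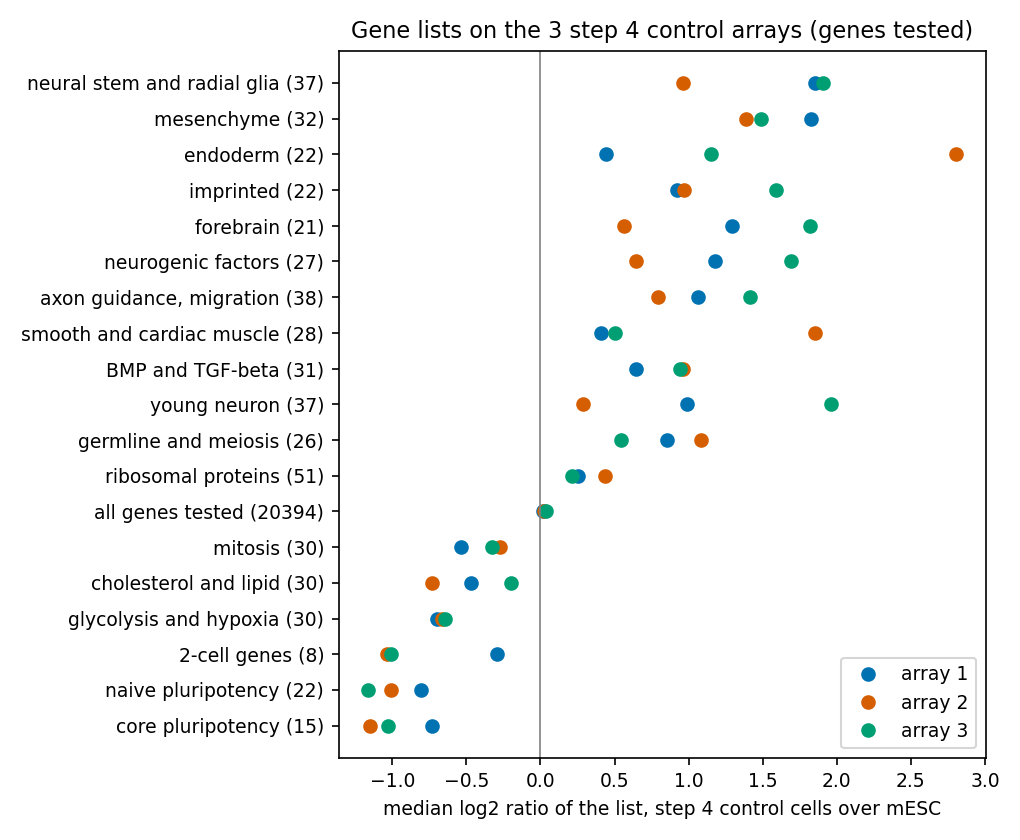
Median log2 ratio of step 4 control cells over mESC for each gene group on each of the 3 step 4 control arrays, with the number of genes tested beside each name. Neural precursor, mesenchymal and imprinted genes lie above the 20394 genes tested and core and naive pluripotency genes below them on all 3 arrays, while endoderm and young neuron genes spread widely between arrays.

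The gene most raised among those measured in both channels was Fabp7, a fatty acid binding protein that marks radial glia. Its log2 ratios were 5.95, 5.11 and 6.33 on arrays 1, 2 and 3, a mean of 5.80 ± 0.63 (SD, n = 3) or 55.6-fold (adjusted p = 2.61e-07). The mESC signal of Fabp7 itself spanned 1.92 log2 units over these 3 arrays. Gpm6b, a membrane proteolipid of neural cells, had 5.75, 4.13 and 6.36 (mean 5.42 ± 1.16, SD, n = 3, adjusted p = 6.25e-06), and Col1a2, a chain of fibrillar collagen made by mesenchymal cells, had 5.21, 5.69 and 5.11 (mean 5.34 ± 0.31, SD, n = 3, 40.4-fold, adjusted p = 1.5e-07). All 3 arrays were high for each, and the 3 genes belong to neural and to mesenchymal cells. At the other end stood Lefty2 and Lefty1, secreted inhibitors of Nodal signalling that mESC make. Lefty2 had -4.20, -4.80 and -4.27, a mean of -4.42 ± 0.33 (SD, n = 3) or 21.5-fold lower (adjusted p = 3.88e-06), and Lefty1 had -3.81, -4.77 and -4.46 (mean -4.34 ± 0.49, SD, n = 3, adjusted p = 3.46e-05). Trh, the precursor of thyrotropin-releasing hormone, followed with -3.57, -4.32 and -3.64, and Rpl39l, a ribosomal protein gene known from testis, had -3.62, -3.80 and -3.50; the arrays of each lay close together.

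**Figure D2:**
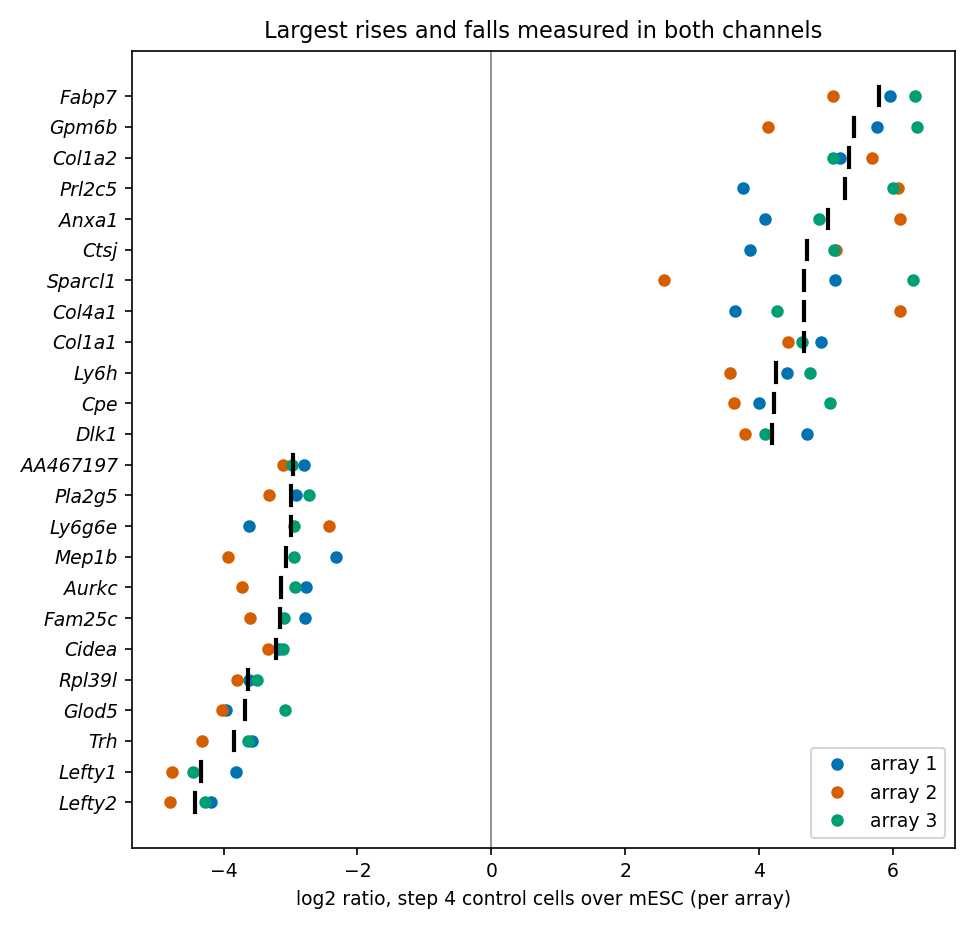
Log2 ratio of step 4 control cells over mESC on arrays 1, 2 and 3 for the 12 largest rises and the 12 largest falls among genes with a symbol that were called and measured in both channels. Only genes of the same sign on all 3 arrays were eligible, so all points of a gene lie on 1 side of 0 by that choice. Fabp7 is at the top and Lefty2 at the bottom.

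Genes of neural stem cells and radial glia were higher as a group: 27 of the 37 tested rose, 1 fell and 9 did not pass the test, with a median of 1.67. The group medians on arrays 1, 2 and 3 were 1.85, 0.96 and 1.91, and 18 genes rose without array 3. Vim, an intermediate filament of precursors and mesenchymal cells, had 4.15, 3.46 and 3.76 (mean 3.79 ± 0.35, SD, n = 3, adjusted p = 2.31e-06), and Ptprz1, a receptor phosphatase of radial glia, had 3.95, 2.57 and 4.65 (adjusted p = 5.1e-05). Hes5, a target of Notch that keeps precursors from turning into neurons, had 3.80, 1.98 and 4.54 (mean 3.44 ± 1.32, SD, n = 3, adjusted p = 0.00193); like most of the group it was lowest on array 2. Sox1, the earliest marker of neural fate, had 2.02, 1.10 and 2.71 (mean 1.94 ± 0.81, SD, n = 3, adjusted p = 0.000276) and Nes, the filament nestin, 2.43, 1.40 and 1.91 (mean 1.92 ± 0.52, SD, n = 3, adjusted p = 0.000348). Hmga2, a chromatin protein of young stem cells, and Msi2, an RNA-binding protein of precursors, were raised more evenly, with 3.04, 2.56 and 1.90 and 1.00, 1.00 and 1.44. The one gene of the group that fell was Sox2, which both mESC and neural precursors express: it had -1.18, -1.87 and -1.36 (mean -1.47 ± 0.36, SD, n = 3, adjusted p = 0.000191), negative on all 3 arrays. Pax6, a regulator of forebrain precursors, had 0.49, 0.045 and 0.84 and did not pass the test (adjusted p = 0.0579, 0.0445 with the replicate number as a block). Id1, an inhibitor of neurogenic factors that BMP signalling induces, rose with 2.84, 1.42 and 2.58 (adjusted p = 0.000272).

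Genes that give the forebrain its regional identity rose, with 16 of 21 higher, 1 lower and a median of 1.28. Otx2, which sets the anterior brain and is also present in mESC, had 2.73, 2.65 and 3.23 (mean 2.87 ± 0.31, SD, n = 3, adjusted p = 2.44e-06). Lhx2, a cortical and eye field factor, had 2.75, 1.75 and 3.12 and Six3, a factor of the rostral forebrain, 1.47, 1.09 and 1.73 (adjusted p = 9.37e-05 and 2.06e-05). For genes seen in Cy5 on all 3 arrays and in Cy3 on none, only a lower bound can be given, the mean of step 4 control cells against the higher of the dimmest signal well above background and the probe's own mESC signal. On that basis Zic1, a zinc finger factor of the dorsal neural tube, was at least 29.3-fold higher (adjusted p = 3.03e-05), Sp8, a factor of the rostral forebrain, at least 16.4-fold (adjusted p = 5.49e-06) and Lhx5, a factor of the diencephalon, at least 3.87-fold (adjusted p = 0.000245). A second probe of Sp8 averaged -0.071 and one of Zic1 0.22, and neither was called. Rax, an eye field factor, was the gene that fell, with -0.97, -0.68 and -0.95 (adjusted p = 2.16e-05), and was above background in step 4 control cells on 2 of 3 arrays. Of 18 midbrain and hindbrain genes 7 rose and 3 fell, against 4 and 1 without array 3, 7 and 0 without array 2 and 4 and 3 with no normalization.

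Genes that drive precursors towards neurons also rose, with 19 of 27 higher and none lower at a median of 1.16; 12 rose without array 3. Sox4 and Sox11, which switch on neuronal genes, had 2.88, 2.16 and 3.71 and 2.02, 1.63 and 3.68 (adjusted p = 9.64e-05 and 0.000593). Insm1, a zinc finger factor of intermediate precursors, had 1.92, 1.14 and 2.08 (adjusted p = 0.00138). In each of these 3, array 3 was highest and array 2 lowest.

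The genes of young neurons depended on the array more than those of precursors. Of 37 tested, 19 rose and 1 fell, with a median of 0.88 over the mean ratios and of 0.99, 0.28 and 1.96 on arrays 1, 2 and 3. Array 3 gave the highest value for 97.3% and array 2 the lowest for 91.9% of the group. Dcx, a microtubule protein of migrating neurons, had 2.90, 2.00 and 4.82 and was at least 9.45-fold higher (adjusted p = 0.00139), and Stmn4 and Gap43, proteins of growing axons, had 3.15, 3.34 and 5.46 and 2.60, 2.27 and 4.45 (adjusted p = 0.000113 and 0.000517). Nrcam, an adhesion molecule of axons, had 2.78, 2.33 and 3.79 (adjusted p = 1.04e-05), and Map2, a dendrite protein, 2.35, 1.03 and 3.61 (mean 2.33 ± 1.29, SD, n = 3, adjusted p = 0.00389). Several textbook neuron markers were not raised: Tubb3, neuronal tubulin, had 0.99, -1.11 and 1.80 (adjusted p = 0.525), and Stmn2, a tubulin-binding protein of axons, had -0.46, -1.42 and 0.42 (adjusted p = 0.323). Prph, a filament of peripheral neurons, was lower on every array with -1.38, -1.05 and -0.96 (adjusted p = 0.000481).

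Genes of GABAergic neurons also differed widely from array to array. Of 15 tested, 8 rose and none fell, with a median of 1.00 over the mean ratios and of 0.93, 0.21 and 1.77 on arrays 1, 2 and 3, but only 2 rose without array 1 and 1 without array 3. Slc32a1, the vesicular GABA transporter, had 1.76, 0.28 and 4.46 (adjusted p = 0.0346, 0.0765 without array 1 and 0.291 without array 3), and Gad1, which makes GABA, had -1.27, -1.85 and 1.73 and did not pass the test (adjusted p = 0.596). Lhx6, a factor of interneurons from the medial ganglionic eminence, had the steadier values 0.54, 0.46 and 0.90 (adjusted p = 0.00377). In step 4 enriched cells the medians of the group were 1.51, 3.01 and 3.21 on replicates 1, 2 and 3.

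**Figure D3:**
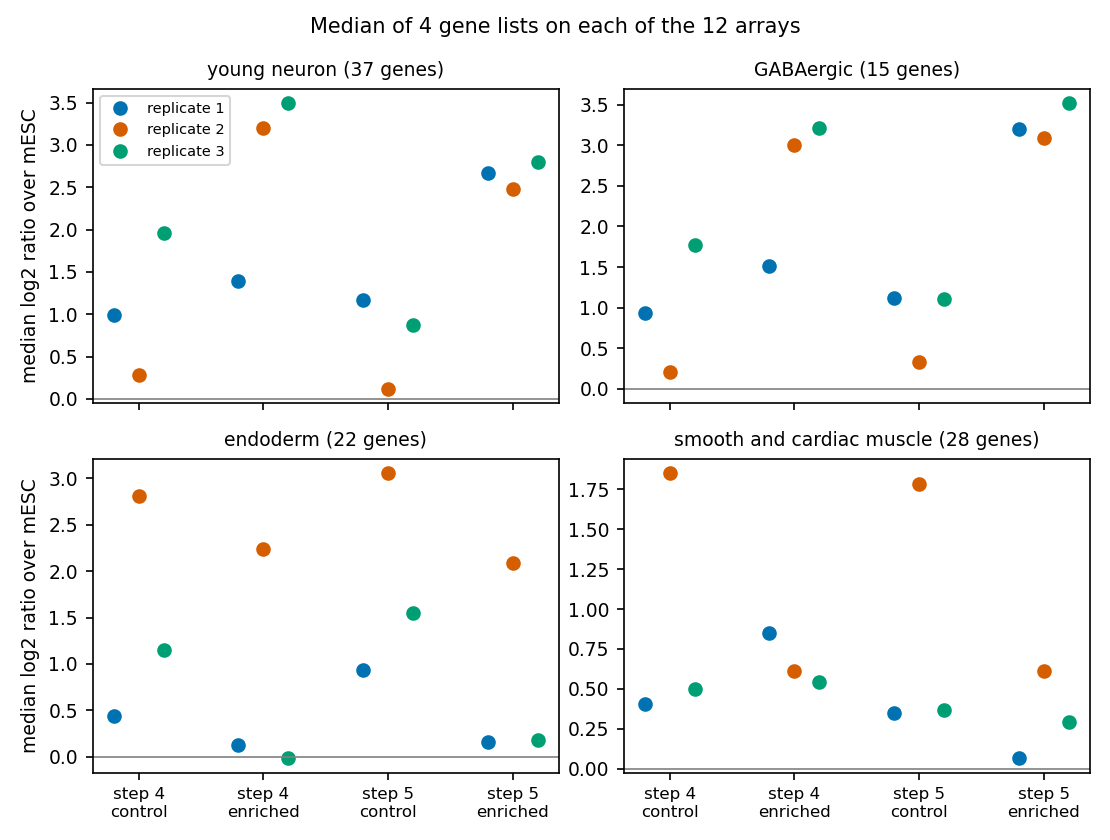
Median log2 ratio over mESC of 4 gene groups on each of the 12 arrays, with the groups of arrays from left to right step 4 control, step 4 enriched, step 5 control and step 5 enriched. Endoderm genes are highest on replicate 2 of every group of arrays, and the young neuron and GABAergic genes of step 4 control cells are highest on array 3 and lowest on array 2.

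All 4 genes that make or carry the sort antigen were raised in the unsorted cells, and all 4 calls held when any 1 of the 3 arrays was left out. Ncam1, the adhesion molecule itself, had 2.66, 1.59 and 3.41 (mean 2.56 ± 0.92, SD, n = 3, adjusted p = 0.000113). St8sia2 and St8sia4, the polysialyltransferases that add its polysialic acid, had 0.96, 0.51 and 1.16 and 2.05, 1.35 and 3.49 (adjusted p = 0.00434 and 0.00222), and the second was at least 4.91-fold higher. Genes of axon guidance and cell migration rose at 28 of 38 and fell at 2, with a median of 1.08. Efnb1, an ephrin of neural precursors, was among the least variable with 1.98, 2.00 and 2.08 (mean 2.02 ± 0.054, SD, n = 3, adjusted p = 1.63e-07), followed by Efnb2 with 2.62, 2.14 and 2.50, Efna5 with 2.24, 2.62 and 2.90 and their receptor Epha7 with 1.53, 1.83 and 1.60. Sema3a, a secreted repellent of axons, was at least 4.26-fold higher (adjusted p = 3.89e-05). Cadherins and protocadherins rose at 17 of 26, with none lower.

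The label of neural precursors was set against marker genes of 10 cell types. Of 10 markers of neural precursors 7 rose, 1 fell and 2 did not pass the test, and of 8 neuron markers 3 rose and none fell. Pluripotent cells were represented by 8 markers, of which none rose and 4 fell, and fibroblasts by 8, of which 7 rose. Visceral endoderm had 2 of 5 markers higher and epithelium 2 of 4, with none lower in either (medians 1.98 and 1.73). In a wider group of 31 genes of epithelium and ectoderm 5 rose and 6 fell. Its medians were -0.71, 0.57 and -0.23 on arrays 1, 2 and 3. Of 6 markers of the oligodendrocyte lineage 1 rose and 2 fell: Olig1, a factor of that lineage, had -1.21, -2.02 and -1.19 (adjusted p = 0.0109, 0.0789 without array 2), whereas Pdgfra, a receptor of oligodendrocyte precursors and of mesenchyme, had 0.62, 2.58 and 1.30 (adjusted p = 0.0143, 0.123 without array 2). None of the 3 astrocyte markers tested passed, while in a wider group of 16 astrocyte genes 9 rose and 1 fell (median 0.86). Blood markers fell at 2 of the 3 tested, whereas 9 genes of blood cells and microglia had 3 higher, 1 of them without array 2, and 2 lower (median 0.12). Of 3 markers of blood vessels 1 passed: Cdh5, their cadherin, rose with 1.49, 3.03 and 2.69 (adjusted p = 0.00288). In neither Cdh5 nor Pdgfra were both channels above background on all 3 arrays. Over the alternative settings their means ran from 2.09 to 6.09 and from 0.96 to 3.67. In the wider group of 14 endothelial genes 7 fell and 3 rose, with a median of -0.36; 1 rose without array 2, and 4 fell with no normalization.

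**Figure D4:**
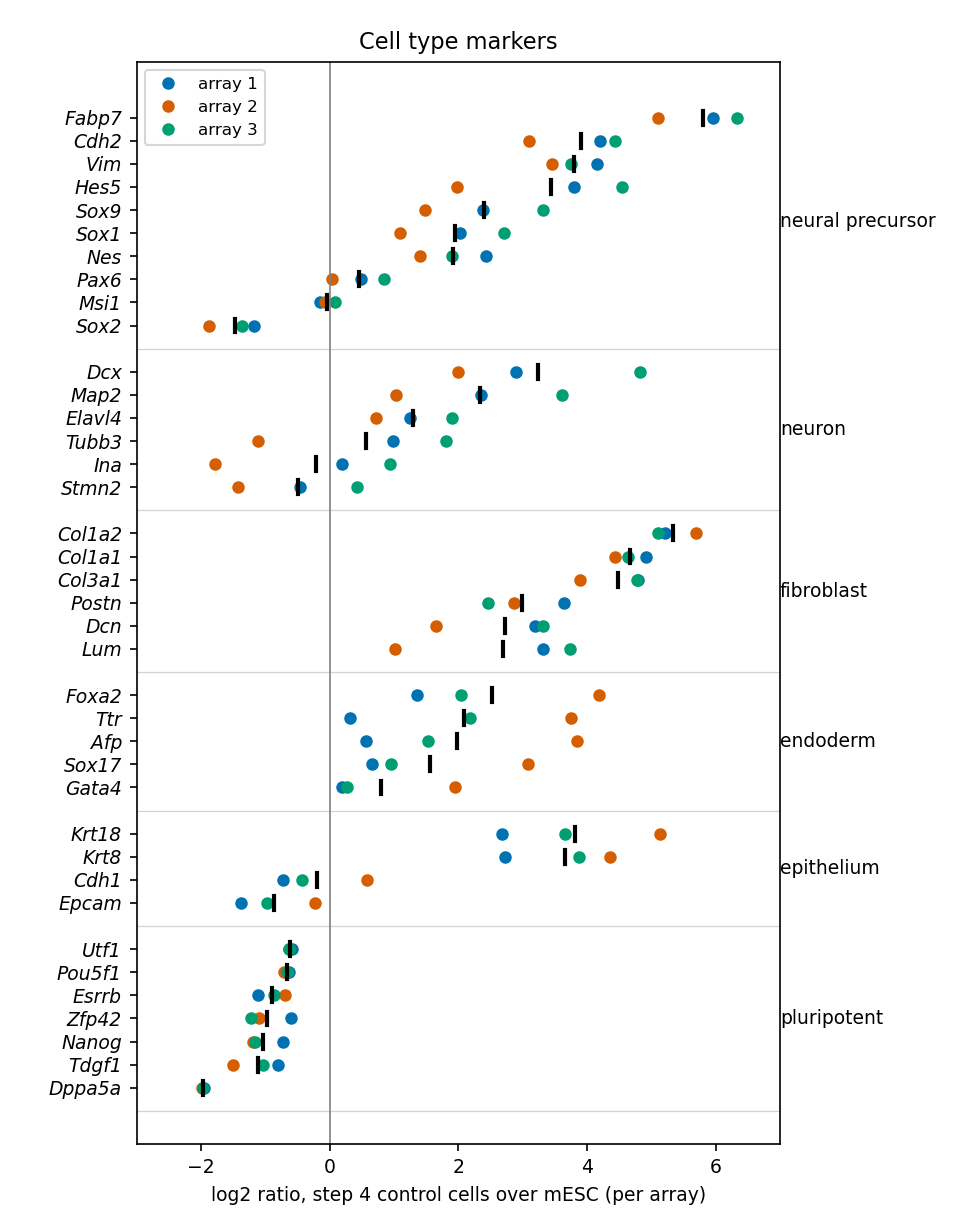
Log2 ratio of step 4 control cells over mESC on arrays 1, 2 and 3 for some of the marker genes of 6 cell types, with a bar at the mean of each gene. Markers of neural precursors and fibroblasts lie mostly above 0, those of pluripotent cells below 0, and those of endoderm are highest on array 2.

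Genes of mesenchymal cells, which make connective tissue, were raised on every array. Of 32 tested, 24 rose and none fell, with a median of 1.57 and medians of 1.83, 1.39 and 1.49 on arrays 1, 2 and 3. Col1a1 had 4.92, 4.43 and 4.64 and Col3a1 4.79, 3.89 and 4.78 (adjusted p = 2.39e-05 and 1.07e-06), which with Col1a2 are the main fibrillar collagens of connective tissue. Postn, a matrix protein of fibroblasts, had 3.65, 2.86 and 2.46, Dcn, a proteoglycan that binds collagen, 3.19, 1.65 and 3.32 (adjusted p = 0.000163 and 0.00177), and Fbn1, which builds microfibrils, was at least 7.54-fold higher (adjusted p = 6.09e-05). In mESC, Col3a1 was well above background on 2 of 3 arrays, and Postn and Dcn on 1 each. mESC cultures are grown on fibroblasts and the content of fibroblasts in the reference RNA is not given, so the part of feeder cells in these ratios was not tested.

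Genes of smooth and cardiac muscle rose at 13 of 28 with none lower. Those of smooth muscle and myofibroblasts were high on all 3 arrays: Acta2, smooth muscle actin, had 3.33, 3.86 and 3.31 (mean 3.50 ± 0.31, SD, n = 3, adjusted p = 1.27e-06), Tagln 3.99, 4.43 and 2.59 and Myl9 3.64, 3.78 and 2.90. Actc1, cardiac actin, had 1.97, 2.29 and 2.22 (adjusted p = 4.96e-05). Both myosins of the heart muscle that follow were highest on array 2. Myh7, a myosin heavy chain, had 1.77, 4.29 and 1.49 (adjusted p = 0.00631, 0.0541 without array 2) and Myl3, a myosin light chain, had -0.68, 3.44 and 0.57 (adjusted p = 0.385, 0.0146 with the replicate number as a block). Without array 2, 6 of the 28 rose and 1 fell, and 8 rose with no normalization.

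Endoderm genes were likewise highest on array 2. Of 22 endoderm genes 11 rose and 4 fell, with medians of 0.44, 2.81 and 1.15 on arrays 1, 2 and 3; 4 rose without array 2, 7 without array 3 and 17 with the replicate number as a block, and 2 fell without array 1 and 2 without array 3. The replicate 2 arrays of the other groups gave medians of 2.24 in step 4 enriched cells, 3.06 in step 5 control cells and 2.08 in step 5 enriched cells. Col4a1 and Col4a2, basement membrane collagens that parietal endoderm makes in bulk, had 3.65, 6.10 and 4.26 and 2.70, 3.81 and 3.09 (adjusted p = 5.91e-05 and 6.69e-06), high on every array and highest on array 2. Dab2, an endocytic adaptor of extraembryonic endoderm, had 1.88, 4.32 and 2.44 and was at least 7.36-fold higher (adjusted p = 0.00226). Foxa2, a factor of endoderm and floor plate, had 1.35, 4.19 and 2.04 and was at least 5.77-fold higher (adjusted p = 0.0206, 0.157 without array 2 and 0.0567 without array 3). Afp, alpha-fetoprotein of visceral endoderm, had 0.57, 3.84 and 1.52 and Sox17, an endoderm factor, 0.66, 3.08 and 0.95. Neither passed the test (adjusted p = 0.0844 and 0.0904), and with the replicate number as a block both did (0.00595 and 1.8e-05). Afp also passed with the scanner software's log ratio, where it averaged 5.20 (limma, adjusted p = 0.0106). It stayed without a call in 22 of 29 alternative settings and Sox17 in 26 of 30.

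Placental genes were raised as well. Of 10 trophectoderm genes 6 rose and 1 fell, with a median of 1.26. The medians on arrays 1, 2 and 3 were 0.53, 1.94 and 1.49. Without array 1, 6 rose, against 5 without array 2 and 4 without array 3. Prl2c5, a hormone of trophoblast giant cells from a family of near-identical genes that 1 probe may not separate, had 3.75, 6.08 and 6.00, and Ctsj, a placental cathepsin, 3.87, 5.15 and 5.11 (adjusted p = 0.000198 and 3.83e-05), both lowest on array 1. Krt8 and Krt18, keratins of simple epithelia including trophectoderm, had 2.73, 4.36 and 3.87 and 2.68, 5.13 and 3.66 (adjusted p = 0.00256 and 0.00487), and Gata3, a trophectoderm factor, had 1.33, 2.31 and 1.36 (adjusted p = 0.00173). Tfap2c, which trophectoderm shares with germ cells and mESC, was the gene that fell, with -2.49, -2.17 and -2.07 (adjusted p = 0.00107).

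Pluripotency genes were lower in step 4 control cells, but the central factors did not all pass the test. Of 15 core genes 11 fell and none rose, with a median of -1.03, and 6 fell without array 2, 6 without array 3 and 5 with no normalization. Of these factors, Pou5f1 had -0.62, -0.71 and -0.67 and Nanog -0.73, -1.19 and -1.16, negative and alike on all 3 arrays. They did not pass the test on the spread shared by the 12 arrays (adjusted p = 0.135 and 0.148) and did on that of the 3 step 4 control arrays alone (adjusted p = 0.011 and 0.0111). Tdgf1, the Nodal co-receptor Cripto, had -0.79, -1.5 and -1.03 (mean -1.11 ± 0.36, SD, n = 3, adjusted p = 0.00413), and Sall1 and Rest, transcription factors of mESC, averaged -1.66 and -1.21 (adjusted p = 0.000654 and 0.000507). Of 22 genes of naive pluripotency 15 fell and none rose (median -0.95). Dppa5a, an RNA-binding protein of pluripotent cells, had -1.96, -1.98 and -1.96 (mean -1.97 ± 0.009, SD, n = 3, adjusted p = 0.000761), Esrrb, a nuclear receptor of the naive state, -1.11, -0.69 and -0.86 (adjusted p = 0.000128) and Socs3, which LIF signalling induces, -1.90, -1.20 and -1.32 (adjusted p = 9.17e-05). The 3 arrays were nearly equal for Dppa5a. Zfp42 (Rex1) averaged -0.97 and Klf4 -0.75, with adjusted p = 0.104 and 0.0993 over the 12 arrays and 0.0168 and 0.0328 on the 3 arrays alone; Klf4 had 0.0298 with the replicate number as a block. Of 8 genes that mark the 2-cell-like state of mESC, 6 fell and none rose, 3 without array 2 and 3 without array 3; Zscan4c had -0.31, -1.87 and -2.10 (adjusted p = 0.0025, 0.0552 on the 3 arrays alone).

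Genes of the germ line moved the other way from pluripotency genes. Of 26 tested, 13 rose and 2 fell, with a median of 0.82, and 12 to 15 rose when 1 of the 12 arrays was left out. Sycp1, a component of the synaptonemal complex that joins meiotic chromosomes, had 2.98, 3.54 and 2.29 (mean 2.94 ± 0.62, SD, n = 3, adjusted p = 1.16e-05). Ddx4, the germ cell helicase Vasa, had 2.31, 2.58 and 1.87 (mean 2.25 ± 0.36, SD, n = 3, adjusted p = 0.00166) and Mael, which silences transposons in the male germ line, 2.42, 2.61 and 1.63 (mean 2.22 ± 0.52, SD, n = 3, adjusted p = 0.000554). All 3 were high on each array, with array 2 highest and array 3 lowest. Hormad1, a protein of meiotic chromosome axes, had 1.63, 1.71 and 1.54 (adjusted p = 0.00225, 0.109 with the scanner software's log ratio), Tex11, a crossover protein, 1.48, 1.5 and 1.59 (adjusted p = 0.00908), Syce1, of the same synaptonemal complex, 1.73, 1.56 and 1.19 (adjusted p = 0.00365) and Slc25a31, the testis form of the mitochondrial ADP/ATP carrier, 1.80, 2.37 and 1.36 (adjusted p = 1.86e-05). The genes that fell were Tdrd12, a piRNA pathway protein, with a mean of -1.44 (adjusted p = 6.41e-06) and Rec8, the meiotic cohesin, with -0.98 (adjusted p = 0.0122, 0.0881 without array 1). Stra8, the retinoic acid target that opens meiosis, had 0.17, -1.11 and -0.75 and did not pass the test (adjusted p = 0.421).

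In mouse cells many germline genes are known to be held silent by promoter DNA methylation and by a Polycomb complex that holds E2F6 together with MAX and MGA, which recognise E2F-type sequences and the E-box. The promoters of the 3 most raised germline genes are shown because each holds both motifs. They are RefSeq promoters of build GRCm38.p6, 250 bases before and 50 bases after the annotated start, all on the minus strand: Sycp1 at chr3:102936051-102936350, Ddx4 at chr13:112652261-112652560 and Mael at chr1:166238695-166238994. Capitals mark the E-box CACGTG and the E2F6-type letters TCCCGC, written GCGGGA where they lie on the other strand.
Sycp1: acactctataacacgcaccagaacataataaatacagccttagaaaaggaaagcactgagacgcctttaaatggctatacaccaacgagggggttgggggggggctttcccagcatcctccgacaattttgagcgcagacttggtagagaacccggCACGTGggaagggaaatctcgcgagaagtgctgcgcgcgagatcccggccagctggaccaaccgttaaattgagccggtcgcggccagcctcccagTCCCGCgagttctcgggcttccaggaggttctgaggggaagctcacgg
Ddx4: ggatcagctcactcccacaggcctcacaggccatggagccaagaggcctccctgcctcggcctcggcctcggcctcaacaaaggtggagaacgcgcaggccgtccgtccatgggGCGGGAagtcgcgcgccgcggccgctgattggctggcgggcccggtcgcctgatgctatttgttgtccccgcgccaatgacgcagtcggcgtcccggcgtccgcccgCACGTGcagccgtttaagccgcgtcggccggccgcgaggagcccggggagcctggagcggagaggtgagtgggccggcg
Mael: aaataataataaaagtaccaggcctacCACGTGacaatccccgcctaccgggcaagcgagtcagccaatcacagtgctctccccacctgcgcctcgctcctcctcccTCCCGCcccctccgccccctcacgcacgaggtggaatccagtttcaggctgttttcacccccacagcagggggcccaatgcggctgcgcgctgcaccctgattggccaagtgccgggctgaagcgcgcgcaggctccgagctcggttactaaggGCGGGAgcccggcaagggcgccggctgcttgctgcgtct
Relative to the start, the E-box begins at position -94 in Sycp1, -29 in Ddx4 and -223 in Mael. On either strand, CACGTG was found in 9 of the 11 promoters (81.8%) available for germline genes that rose and in 10 of the 24 (41.7%) available for all germline genes tested, against 9.9% of the 12267 promoters of genes tested and 7.2% of all 27025 promoters. TCCCGC was found in 7 of the 11 (63.6%) and in 13 of the 24 (54.2%), against 33.4% of the promoters of genes tested and 20% of all promoters, and in 62.1% of the 29 available for DNA replication genes tested. The 2 motifs share no bases in these promoters, and a match describes the letters alone.

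Imprinted genes, of which only the maternal or the paternal copy is active, rose at 16 of 22 and fell at 1, with a median of 1.28. Dlk1, a paternally expressed growth regulator, had 4.71, 3.79 and 4.09 (mean 4.20 ± 0.47, SD, n = 3, adjusted p = 1.55e-05), and Plagl1, a zinc finger factor that acts on other imprinted genes, 4.40, 3.39 and 4.06 (adjusted p = 5.98e-05). H19, a maternally expressed noncoding RNA, had 2.69, 3.20 and 3.01, Mest, a paternally expressed gene of mesoderm and brain, 3.48, 2.42 and 3.00 and Cdkn1c, a maternally expressed cell cycle inhibitor, 2.29, 2.87 and 3.04 (adjusted p = 1.16e-05, 8.29e-05 and 1.1e-05). Genes of both parental copies thus rose, on all 3 arrays. Phlda2, a maternally expressed inhibitor of placental growth, was the one that fell, with -1.26, -0.95 and -1.08 (adjusted p = 0.000716).

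In the BMP and TGF-beta pathway 18 of 31 genes rose and 3 fell, with a median of 0.94. Among ligands, Tgfb2 had 3.38, 3.64 and 3.35 (mean 3.46 ± 0.16, SD, n = 3, adjusted p = 2.27e-07) and Inhbb, a subunit of activin, fell with -0.72, -1.40 and -1.62 (adjusted p = 0.0018). The receptor Tgfbr2 had 2.73, 2.71 and 2.11 and the signal transducer Smad1 0.95, 0.96 and 0.94 (adjusted p = 7.84e-05 and 3.23e-05). Both inhibitory Smads fell, Smad6 with -1.30, -1.28 and -1.36 and Smad7 with -1.54, -1.27 and -1.99 (adjusted p = 2.59e-05 and 3.99e-05), and all arrays were negative for both.

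Genes of glycolysis and of the response to hypoxia were lower more often than higher. Of 30 such genes 15 fell and 2 rose, with a median of -0.65; 8 fell without array 1, 7 without array 3, 9 with median centring and 7 with no normalization. Pfkp, a phosphofructokinase, had -1.61, -1.68 and -1.42 (mean -1.57 ± 0.14, SD, n = 3, adjusted p = 0.000411) and Ldhb, a lactate dehydrogenase subunit, -1.24, -1.03 and -0.98 (adjusted p = 6.48e-05), whereas Adm, the vasodilator peptide adrenomedullin, rose with 1.78, 2.17 and 1.93 (adjusted p = 0.00493). Of 30 genes of cholesterol and lipid synthesis or transport 12 fell and 3 rose; 6 fell without array 1, 3 without array 2 and 6 with no normalization, and 1 rose without array 3. Abca1, which exports cholesterol from cells, was among those that rose, with 1.96, 1.89 and 1.66 (adjusted p = 9.52e-05).

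Genes of cell division were slightly lower. Of 30 mitosis genes 16 fell and none rose, with a median of -0.39; 6 fell without array 1, 10 without array 3, 8 with median centring and 3 with no normalization. Mybl2, a factor that switches on mitotic genes, had -1.37, -1.16 and -1.03 (adjusted p = 6.78e-06), Ccne1, the cyclin of S phase entry, -0.93, -1.33 and -0.97 (adjusted p = 0.000469), and Mki67, a marker of dividing cells, averaged -0.36 without passing the test (adjusted p = 0.103). Against this, the cyclin Ccnd2, a D-type cyclin of neural precursors, was raised with 4.31, 3.80 and 4.26 (mean 4.12 ± 0.28, SD, n = 3, adjusted p = 8.87e-08), and the cell cycle inhibitor Cdkn1b (p27) with 1.11, 1.34 and 1.74 (adjusted p = 5.84e-05).

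Single chromatin genes moved in both directions. Dnmt3a, a de novo DNA methyltransferase, rose with 1.63, 1.91 and 2.75 (adjusted p = 3.89e-05) while Tet1, which oxidises methylcytosine in mESC, fell with -1.08, -1.15 and -0.85 (adjusted p = 0.000495). Smarca2 (BRM), an ATPase of the BAF remodelling complex, had 2.66, 2.89 and 3.62 (mean 3.06 ± 0.50, SD, n = 3, adjusted p = 1.13e-06). Of the Polycomb proteins, Bmi1, a member of complex PRC1, had 2.03, 1.65 and 1.83 (adjusted p = 8.82e-07), whereas Suz12, a core member of PRC2, had -0.59, -0.60 and -0.83 and Mtf2, an accessory member of PRC2 in mESC, -1.19, -0.88 and -1.01 (adjusted p = 0.00118 and 0.000751).

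Against step 4 enriched cells, the group most like them in culture history, step 4 control cells were higher at most pluripotency and germline genes. Of 20394 genes 6803 differed (33.4%), 3660 higher in step 4 control cells (17.9%) and 3143 lower (15.4%), and the count was 4371 without step 4 control array 2 and 4432 without step 4 enriched array 3. Of these calls 53.8% were higher, against 37% with median centring (2623 higher, 4457 lower), 32% with no normalization (1203 higher, 2556 lower) and 72.1% with scaling between arrays (1702 higher, 657 lower). Step 4 control cells were higher than step 4 enriched cells at 12 of 15 core pluripotency genes, 19 of 22 naive genes and 25 of 26 germline genes, and lower at none of these. The group medians over mESC were -1.03, -0.95 and 0.82 in step 4 control cells, against -2.65, -3.42 and -2.34 in step 4 enriched cells. Dppa5a averaged -1.97 in step 4 control cells and -5.59 in step 4 enriched cells, and Nanog -1.03 and -5.57 in the same order (adjusted p of the difference = 0.000448 and 0.00189). Sycp1 had 2.98, 3.54 and 2.29 in step 4 control cells and -1.28, -0.77 and -1.32 in step 4 enriched cells (adjusted p = 7.06e-05), and Hormad1 had 1.63, 1.71 and 1.54 and -3.09, -2.01 and -3.12 (adjusted p = 0.000191), so that both lay above mESC on every unsorted array and below it on every sorted one. Genes of division showed the same order, with 24 of 30 mitosis genes and 24 of 35 DNA replication genes higher in step 4 control cells and none lower, or 10 and 12 with scaling between arrays. Several neural groups had the reverse order. Step 4 control cells were lower at 12 of 37 radial glia, 12 of 21 forebrain, 20 of 38 axon guidance and 3 of 4 sort antigen genes. They were higher at 0, 2, 1 and 0. With scaling between arrays 1, 1, 1 and 0 were lower. The group medians over mESC were 1.67, 1.28, 1.08 and 2.23 in step 4 control cells, against 2.57, 3.02, 2.24 and 3.41 in step 4 enriched cells. The 12 arrays share the mESC reference and the fit, and the sort and the handling that goes with it cannot be told apart.

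**Figure D5:**
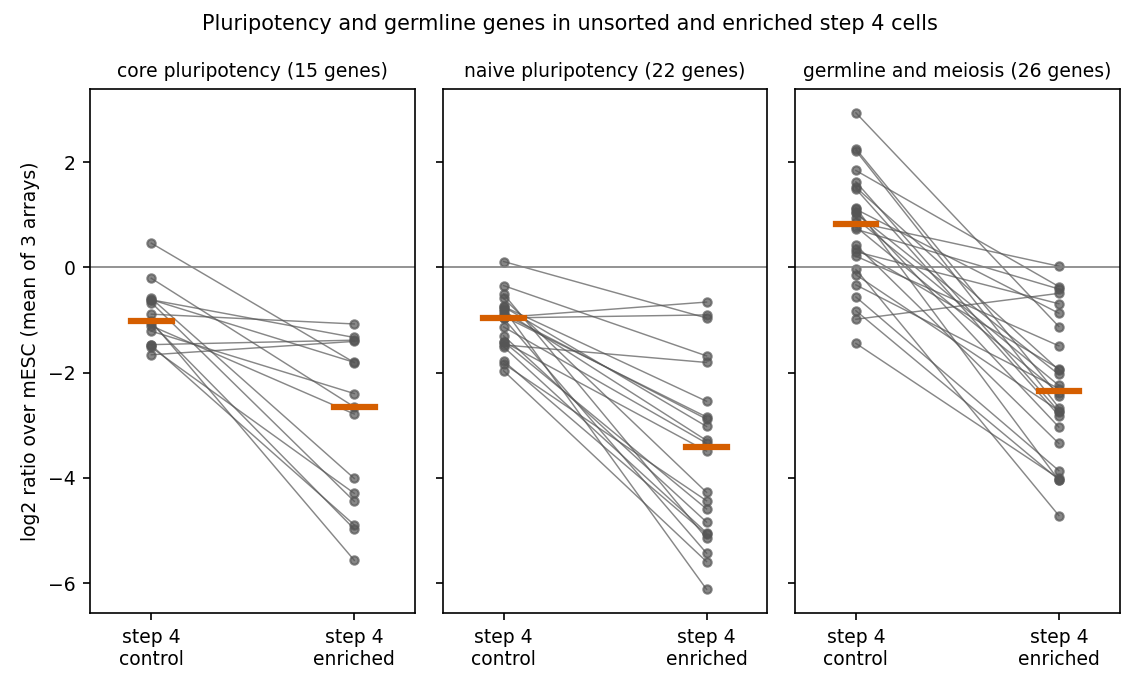
Mean log2 ratio over mESC of 15 core pluripotency, 22 naive pluripotency and 26 germline genes in step 4 control cells and in step 4 enriched cells, with lines joining each gene and bars at the medians. Core and naive genes lie a little below mESC in step 4 control cells and far below in step 4 enriched cells, and most germline genes lie above mESC in step 4 control cells and below it in step 4 enriched cells.

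Mesenchymal genes did not share the pattern of pluripotency and germline genes. Col1a2 averaged 5.34 in step 4 control cells and 5.30 in step 4 enriched cells, a difference of 0.034 (SE 0.28, adjusted p = 0.939) that became 2.36 with scaling between arrays (adjusted p = 0.00212). Col1a1 averaged 4.66 and 5.68 in the same order (limma, adjusted p = 0.225). Of the 32 mesenchymal genes 1 was higher in step 4 control cells and 3 were lower, and leaving out single arrays gave 0 to 6 lower. The group medians over mESC were 1.57 in step 4 control cells and 2.06 in step 4 enriched cells.

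In the main fit, which does not pair the samples, no gene passed the test between step 4 control and step 5 control cells (0 of 20394 genes, 0%, limma). These groups differ by 7 more days of culture without bFGF, with B27 supplement and 200 µM ascorbic acid, and the parts of these changes cannot be told apart. At an unadjusted p under 0.05 there were 1783 genes, 528 higher at step 4 and 1255 lower, and other settings called 0 to 329 genes, the most without step 5 control replicate 2. The smallest adjusted p was 0.164, which several genes shared, among them Itga7, the laminin receptor subunit of muscle, which averaged -0.028 in step 4 control cells and 1.74 in step 5 control cells. Fabp7 averaged 5.80 at step 4 and 5.42 at step 5, Col1a2 5.34 and 6.07, Lefty2 -4.42 and -3.57, and Sycp1 2.94 and 3.36. The SEs of these 4 differences were 0.34, 0.28, 0.42 and 0.34. They belong to the main fit, which took the spread from the arrays of all groups and left the samples unpaired. With the replicate number as a block, 2516 genes had an unadjusted p under 0.05 and 1 was called (limma). The fit of the unsorted arrays alone with that block, chosen after seeing the data, had 4015 such genes and called 4. The count of 0 thus belongs to the unpaired main fit and does not show that the steps were alike.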

How the data were processed

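RNA of step 4 control, step 4 enriched, step 5 control and step 5 enriched cells (3 samples each, labelled biological replicates, 100 ng of total RNA amplified) was hybridised in Cy5 with mESC RNA in Cy3 on 2-colour Agilent arrays. The deposited scanner files hold spot intensities of both dyes and a log10 ratio of Cy5 over Cy3, made with Feature Extraction 10.7.3.1 or, for replicate 2, 10.5.1.1, per the file headers. A deposited value table equals that ratio turned to log2 within 0.001 for 99.4 to 99.5% of probes on each array.

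The mean and background intensities were corrected with normexp (offset 50) and normalized within each array by loess, and control spots and non-uniform spots (154 to 298 of 44397 on the step 4 control arrays) were left out. Limma 3.58.1 under R 4.3.3, with the data.table package 1.17.8, fitted 1 mean per group over all 12 arrays, and two-sided p-values were adjusted by the Benjamini-Hochberg method over all 25622 probes tested, with a threshold of 0.05. Tests measure the spread between these samples. Probes were tested if well above background in 1 channel on all 3 step 4 control arrays, and a gene was taken from its brightest probe. Probe names were updated by accession through RefSeq gene records. The code was tested on simulated data.

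The sample titles give replicate numbers and name no slide. Deviations from the group means of same-numbered samples correlated at 0.138 to 0.641 between step 4 control and step 4 enriched arrays. Between step 4 control and step 5 control arrays they correlated at 0.475 to 0.758. Samples with different numbers gave -0.575 to 0.288 and -0.786 to 0.218 in the same order. Step 4 control replicate 2 thus correlated more with step 4 enriched replicate 1 (0.288) than with its own number (0.138). The numbers were taken to pair the samples, and the fit with the number as a block is an alternative. The arrays and the gene groups were chosen with earlier results of these data known. Genes named are members of those groups, the 12 largest rises and 12 largest falls measured in both channels, the 8 largest bounds, the 10 widest ranges over the 3 arrays, the 8 largest differences from step 4 enriched cells in each direction and the brightest genes. The 12 largest rises and falls were taken from called genes of the same sign on all 3 step 4 control arrays. Alternatives were other backgrounds, normalizations, filters, blocks and array subsets, 30 in all for the comparison with mESC, and 1 more, on the 6 unsorted arrays with the number as a block, was chosen after seeing the data. Some genes of the groups are not reported here by name.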

Additional observations from a re-analysis of the deposited data

Results flagged for a closer look

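Of the 15700 genes with a symbol, 105 were called above mESC in step 4 control cells and below mESC in step 4 enriched cells with the difference itself called, and 30 were called the other way round. Among the largest of these differences, step 4 control minus step 4 enriched cells on the log2 scale, were those of germline genes. They were 4.88 for Mael, 4.70 for Ddx4, 4.37 for Hormad1, 4.31 for Syce1 and 4.10 for Sycp3, a second protein of the synaptonemal complex, with adjusted p = 0.00016, 0.000466, 0.000191, 0.000204 and 0.000487. Mael averaged 2.22 in step 4 control cells and -2.66 in step 4 enriched cells, and Ddx4 averaged 2.25 and -2.44. Sycp3 averaged 1.06 and -3.03; its call against mESC (adjusted p = 0.0386) was lost without step 4 control replicate 1 (0.124) or 2 (0.219) and without step 5 control replicate 3 (0.0519), and also with normexp offset 16 (0.0565), no normalization (0.0639), the scanner software's log ratio and the deposited table (0.12 each), no filter on dim probes (0.0537) and a test against a 1.5-fold change (0.721). Gm7167, named after its values were seen, differed by 4.56, with 1.55 in step 4 control cells and -3.01 in step 4 enriched cells, and its call against mESC (adjusted p = 0.0148) was lost without any 1 of the 3 step 4 control arrays (0.0613, 0.0638 and 0.052), with the scanner software's log ratio and the deposited table (0.0957 each) and against a 1.5-fold change (0.232).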

How the results depend on the processing

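The count of genes that differed from mESC, 8757, became 17743 with no normalization and 1371 when tested against a 1.5-fold change; the other planned settings gave 6495 to 11205, and leaving out 1 array gave 5901 to 9388. Against step 4 enriched cells, 6803 became 3759 with no normalization, 2359 with scaling between arrays and 749 against a 1.5-fold change. The count was 3155 without the replicate 2 arrays of all groups, and leaving out 1 array gave 4371 to 7558. Against step 5 control cells, 0 became 7 with scaling between arrays and 68 without the replicate 2 arrays, and leaving out 1 array gave 0 to 329. With the replicate number as a block, which pairs the samples, the counts were 10249, 8494 and 1 in the same order of comparisons, and the fit of the 6 unsorted arrays with that block, chosen after seeing the data, called 4 between the steps. The block changed the call against mESC of 5 named genes (Pax6, Klf4, Afp, Sox17 and Myl3, each gained) and of no other.

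Of the values of 122 genes named against mESC under these settings, 3545 of 3642 kept direction and call, 58 lost the call (24 of them against a 1.5-fold change), 33 gained it and 6 turned sign. The 6 were Sp8 through its second probe (-0.071, where both channels had to be above background), Gad1 without the replicate 2 arrays and without step 4 control replicate 2 alone (0.23 each), Myl3 in the same 2 settings (-0.051 each) and Tubb3 without step 4 control replicate 3 (-0.062). Leaving out 1 array, Gad1 ran from -1.56 to 0.23, Myl3 from -0.051 to 2.01 and Tubb3 from -0.062 to 1.40. Col1a2 against step 4 enriched cells, not called, turned to -0.06 without the replicate 2 arrays. It ran from -0.34 (step 4 enriched replicate 3 left out) to 0.32 when 1 array was left out, with -0.14 where that was step 4 control replicate 2. In the counts for the 122 genes, values under median centring and no normalization were taken after the shift given above. Before that shift, 9 of the called genes named changed sign with no normalization and 0 with median centring. Of all 8757 calls against mESC, 3171 and 1103 changed sign in the same order. Esrrb and Suz12 lost their calls with no normalization, Adm without the replicate 2 arrays and Lhx6 with the mean of its probes. Pdgfra lost its call with no normalization, on the 3 step 4 control arrays alone and without the replicate 2 arrays. Of the named genes, 44 had more than 1 probe, and 10 called genes had a probe that was not called the same way (Dcx, Efnb2, Foxa2, Lhx6, Msi2, Plagl1, Slc32a1, Sp8, Tgfbr2 and Zic1), none of them the opposite way. The causes of these changes were not tested. Signal limits 837 genes seen in step 4 control cells alone and 56 seen in mESC alone, for which a ratio is a bound. Among named genes given without a bound, Adm, Afp, Pax6, Smarca2 and St8sia2 were not above background in both channels on all 3 arrays. Over the alternative settings their means ran from 1.85 to 3.38, 1.05 to 5.24, 0.14 to 1.11, 2.78 to 4.73 and 0.60 to 2.30 in that order.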

Other observations

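Genes of ribosomal proteins rose at 27 of 51 and fell at 4, with a median of 0.31 on the log2 scale. The scanner's own log ratio gave 15 rises and median centring 44, with 4 falls in each. Among the brightest probes in Cy5 were those named F10 and Slc10a1, genes known from liver, and they were bright in the mESC channel as well, with log2 signals of 17.99 in step 4 control cells and 16.97 in mESC for F10, and 18.15 and 17.05 for Slc10a1.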
